A study of Mus musculus with 20 samples.

Results

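Respiratory complex I, the NADH dehydrogenase of mitochondria, was examined in whole testis through its nuclear genes. Every probe whose gene symbol begins with Ndufa, Ndufb, Ndufc, Ndufs, Ndufv or Ndufaf was taken, which gave 43 probes for 41 genes out of 20868 probes and 16966 named genes. Ndufs6 and Ndufa4l2 had 2 probes each, and the probe with the brightest mean signal stood for the gene. By known role, 34 of the genes encode subunits, 5 encode Ndufaf assembly factors, and the remaining 2 are Ndufa4 and its paralogue Ndufa4l2.

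Complex I takes electrons from NADH in the matrix, passes them along iron-sulfur clusters to ubiquinone, and pumps protons across the inner membrane. Its matrix arm holds an N module, where NADH is oxidized, and a Q module, where ubiquinone is reduced, and its membrane arm holds the proton pumps. The core subunits are conserved from bacteria, while the accessory subunits surround them and are needed for assembly and stability. Male germ cells depend on mitochondrial respiration to a degree that differs between stages, and spermatocytes and spermatids are the stages best known for it.

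RNA came from whole testis of 20 male mice on the C57BL/6 background, 5 in each of 4 groups. The groups were Wt B[a]P, Wt control, Xpc-/- B[a]P and Xpc-/- control. Exposed mice had a single oral gavage of benzo(a)pyrene (B[a]P, a polycyclic aromatic hydrocarbon that forms DNA adducts after metabolic activation) at 13 mg/kg bw, control mice had sunflower oil, and testes were taken after 4 days. Xpc-/- mice lack XPC, the damage sensor of global genome nucleotide excision repair. No source used here gives the age of the mice.

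Each Cy5-labelled sample was hybridized with a Cy3-labelled pool of 3 other unexposed Wt testes on Agilent 22K Mouse arrays. Values below are normalized signals on the log2 scale after correction for that reference. Xpc averaged 6.56 ± 0.21 in Xpc-/- B[a]P mice and 7.29 ± 0.20 in Wt B[a]P mice, and 6.72 ± 0.29 in Xpc-/- control mice and 7.39 ± 0.20 in Wt control mice (SD, n = 5 each). The genotype difference was -0.70 on the log2 scale (limma, adjusted p = 0.000298). The probes of elongating spermatid markers were all outside the dimmest 25% of the array (0 of 9 in it), as were those of spermatocytes (0 of 10), whereas the 3 epididymis markers were all within it. None of the 4 fat markers was in the dimmest 25%, and the mean of that list relative to Wt controls ranged from 0.04 to 0.60 in Wt B[a]P mice, -0.22 to 0.23 in Wt control mice, -0.26 to 0.71 in Xpc-/- B[a]P mice and -0.15 to 1.02 in Xpc-/- control mice. The part of fat tissue in the results was not tested. In a principal component analysis of all probes, Xpc-/- control 1 and 2 stood apart, with scores of 38.4 and 40.5 on the first component (24.5% of the variance), while the other 18 mice lay between -18.7 and 8.10. Results that rest on these 2 arrays are therefore given with and without them.

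Probes for complex I were mostly bright. Of the 41 genes, 25 had a probe above the 90th percentile of signals and 9 lay between the 75th and 90th percentiles. The brightest probes were those of Ndufa13, Ndufb8 and Ndufb9, and the dimmest were those of Ndufa3, Ndufab1 and Ndufa4l2. Only Ndufa3, at the 6.0th percentile, lay in the dimmest 25%. Brightness depends on the probe as well as on the RNA, so the order of these signals is not an order of RNA levels. Among mice of a group, Ndufv1 and Ndufb4 varied least, with pooled SDs of 0.10 and 0.13, and Ndufa8 and Ndufs7 varied most, with SDs of 0.44 and 0.43.

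With all 20 mice, B[a]P lowered 4 complex I genes and raised none. Over both genotypes, with 10 exposed and 10 control mice, Ndufa9, Ndufa10, Ndufa6 and Ndufb8 fell (limma, adjusted p under 0.05). These were 9.76% of the 41 genes, while 2.34% of all named genes fell and 4.02% rose. Calls were more frequent among bright probes in general. Above the 90th percentile of signals 5.56% of genes fell, against 3 of the 25 complex I genes there. At an unadjusted p under 0.05, 10 of the 41 genes passed, compared with 19.9% of all genes. The median change of the 41 genes was -0.001 on the log2 scale, beside -0.006 for all genes, and 21 genes had a negative and 20 a positive estimate. The estimates of single genes lay between -0.46 and 0.27. No complex I gene separated all 10 exposed from all 10 control mice, which 0.0354% of all genes did downward and 0.46% upward. Without Xpc-/- control 1 and 2, Ndufs4, Ndufa12 and Ndufa3 rose and Ndufs7, Ndufa5 and Ndufa11 also fell. Ndufb8 was then not called (limma, adjusted p = 0.0506). In that fit 6.48% of all genes fell and 6.17% rose. Because whole testis was measured, fewer cells of a type and less RNA per cell cannot be told apart.

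Ndufa9, an accessory subunit of the Q module at the junction with the membrane arm, had the largest change. In Wt B[a]P mice its signals were 11.56, 11.62, 11.70, 11.28 and 11.10, against 12.12, 12.17, 12.15, 12.13 and 11.96 in Wt control mice. All exposed Wt mice lay below all Wt controls. In Xpc-/- B[a]P mice the signals were 11.70, 11.68, 11.56, 11.63 and 11.54, against 11.86, 11.60, 11.84, 12.03 and 12.07 in Xpc-/- control mice. There the groups overlapped through Xpc-/- control 2 alone. The B[a]P effect over both genotypes was -0.46 ± 0.08 (SE) on the log2 scale, or 0.729 times the control level (limma, adjusted p = 0.000701). It remained called without any single mouse, with adjusted p between 0.000218 and 0.00233.

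Ndufa10, a membrane arm subunit related to nucleoside kinases, had the next largest fall. Its signals were 8.69, 8.51, 8.82, 8.63 and 8.76 in Wt B[a]P mice and 9.09, 9.07, 8.98, 9.01 and 9.15 in Wt control mice. In Xpc-/- B[a]P mice they were 8.79, 8.42, 8.94, 8.75 and 8.94, and in Xpc-/- control mice 9.26, 9.16, 8.92, 9.06 and 9.16. The Wt groups did not overlap, and in Xpc-/- mice 1 control, number 3, lay just below the highest exposed mice. The effect was -0.36 ± 0.07 (SE), or 0.778 times the control level (limma, adjusted p = 0.00343), and leaving out single mice gave adjusted p between 0.0019 and 0.00891.

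Ndufa6, an accessory subunit of the Q module of the LYR protein family, which binds the mitochondrial acyl carrier protein, also fell. Its signals were 12.45, 12.34, 12.29, 12.72 and 12.44 in Wt B[a]P mice and 12.85, 12.83, 12.82, 12.76 and 12.76 in Wt control mice. They were 12.45, 12.08, 12.50, 12.68 and 12.38 in Xpc-/- B[a]P mice and 12.47, 12.45, 12.63, 12.76 and 12.82 in Xpc-/- control mice. All exposed Wt mice were below the Wt controls, whereas the Xpc-/- groups overlapped. The effect was -0.28 ± 0.08 (SE), or 0.824 times the control level (limma, adjusted p = 0.0299). The call was lost when any of 7 mice was left out, namely Wt control 1 or 2, Wt B[a]P 2 or 3, Xpc-/- control 4 or 5, or Xpc-/- B[a]P 2, with adjusted p up to 0.0656.

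Ndufb8, an accessory subunit of the distal membrane arm, was the fourth gene. Its signals were 13.34, 13.07, 13.25, 12.95 and 13.02 in Wt B[a]P mice and 13.36, 13.28, 13.16, 13.46 and 13.45 in Wt control mice. They were 12.97, 12.88, 12.95, 12.85 and 13.13 in Xpc-/- B[a]P mice and 13.49, 13.36, 13.12, 13.16 and 13.27 in Xpc-/- control mice. The groups overlapped in both genotypes, in Xpc-/- mice through the exposed mouse 5 and control 3 only. The effect was -0.27 ± 0.07 (SE), or 0.829 times the control level (limma, adjusted p = 0.0252). It was lost without Wt control 4 (adjusted p = 0.0581) or Wt control 5, and narrowly without Xpc-/- control 1 and 2 together (adjusted p = 0.0506).

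**Figure D1:**
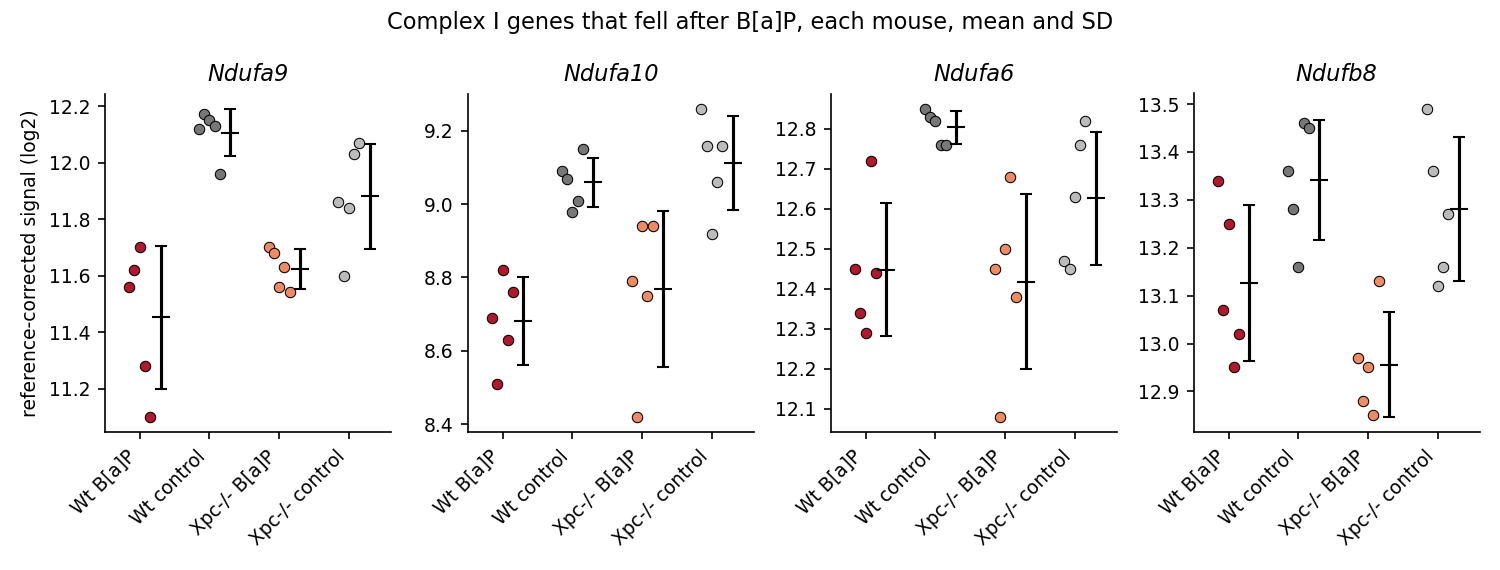
Signal of Ndufa9, Ndufa10, Ndufa6 and Ndufb8 in each of the 20 mice (log2 of the reference-corrected signal, y axes not starting at 0), by group, with the group mean and SD as bars. In Wt mice the exposed points lie below all control points for Ndufa9, Ndufa10 and Ndufa6, while the Xpc-/- groups overlap for each gene.

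The upstream sequences of these 4 genes are shown because these were the genes of the complex that fell. RefSeq windows on GRCm38.p6 were found for 37 of the 41 genes (39 windows). Each sequence gives the 250 bases before the annotated start, 5′ to 3′ on the gene's strand, which is the minus strand for all 4. Capitals mark letters that match a searched motif. The windows are chr6:126849145-126849394 for Ndufa9, chr1:92473759-92474008 for Ndufa10, chr15:82354292-82354541 for Ndufa6 and chr19:44555443-44555692 for Ndufb8.
Ndufa9: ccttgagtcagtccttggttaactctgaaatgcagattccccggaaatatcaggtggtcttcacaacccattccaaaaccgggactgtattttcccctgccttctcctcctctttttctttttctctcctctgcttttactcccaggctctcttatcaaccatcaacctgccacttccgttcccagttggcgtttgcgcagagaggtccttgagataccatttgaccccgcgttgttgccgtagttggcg
Ndufa10: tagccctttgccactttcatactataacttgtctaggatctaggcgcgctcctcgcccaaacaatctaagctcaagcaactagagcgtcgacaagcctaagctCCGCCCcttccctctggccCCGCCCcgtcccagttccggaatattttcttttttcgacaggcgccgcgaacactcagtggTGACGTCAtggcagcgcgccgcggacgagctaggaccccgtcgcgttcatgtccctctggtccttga
Ndufa6: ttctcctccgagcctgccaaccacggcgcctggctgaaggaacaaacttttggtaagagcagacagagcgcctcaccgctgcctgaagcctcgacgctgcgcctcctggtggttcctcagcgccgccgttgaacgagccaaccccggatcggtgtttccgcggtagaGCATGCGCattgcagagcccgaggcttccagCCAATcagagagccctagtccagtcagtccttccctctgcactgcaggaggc
Ndufb8: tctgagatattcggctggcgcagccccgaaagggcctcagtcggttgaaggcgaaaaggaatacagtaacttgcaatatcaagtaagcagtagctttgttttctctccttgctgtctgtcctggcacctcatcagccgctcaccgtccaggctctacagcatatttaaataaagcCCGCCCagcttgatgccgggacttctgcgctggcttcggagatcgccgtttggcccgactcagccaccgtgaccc

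Motifs were searched on both strands in these 250-base windows. GCATGCGC, a motif of NRF1, a regulator of nuclear genes for respiration, was present in 4 of the 39 windows and in 2.26% of 32851 windows of all genes. The ETS motif CCGGAAG, bound by GABP, was present in 3 windows (6.91% of all) and the motif of the aryl hydrocarbon receptor, TNGCGTG, in 5 (4.1% of all). The SP1 motif GGGCGG was present in 16 windows (32.7% of all), CCAAT in 12 (33.8% of all) and TATAAA in 5 (12.4% of all). The cAMP response element TGACGTCA, added after the sequences were read, was present in 3 windows (1.55% of all), those of Ndufa10, Ndufa11 and Ndufb2. The Ndufa10 window held that element and 2 SP1 motifs, the Ndufa6 window GCATGCGC and CCAAT, and the Ndufb8 window 1 SP1 motif. None of the searched letters was in the Ndufa9 window, so the 4 windows shared no searched motif. The aryl hydrocarbon receptor, which binds B[a]P, had its motif in the windows of Ndufa3, Ndufa7, Ndufaf5 and Ndufaf7. With all mice these genes were not called, and without Xpc-/- control 1 and 2 Ndufa3 was higher in exposed mice, by 0.23 on the log2 scale (limma, adjusted p = 0.0431). The Ndufa3 probe was dim, at the 6.0th percentile of signals, and a role of the receptor was not tested.

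By position in the complex, the negative estimates were most frequent in the Q module. Of its 7 measured genes, 2 fell (Ndufa9 and Ndufa6), none rose and 6 had a negative estimate, with a median of -0.23 on the log2 scale, beside -0.01 for all genes. Ndufs3, Ndufs7 and Ndufs8 are its core subunits here. Ndufs8, which carries iron-sulfur clusters, changed by -0.28 ± 0.09 (SE) but did not pass the threshold (limma, adjusted p = 0.0604). Its signals were 10.84, 10.52, 10.79, 10.24 and 10.77 in Wt B[a]P mice and 11.08, 10.79, 10.90, 11.01 and 10.81 in Wt control mice. They were 10.73, 10.31, 10.74, 10.53 and 10.94 in Xpc-/- B[a]P mice and 11.12, 11.00, 10.57, 11.00 and 10.97 in Xpc-/- control mice, where control 3 was lower than 3 of the exposed mice. It passed the threshold without Xpc-/- control 3 (adjusted p = 0.0199) or without Xpc-/- B[a]P 5 (adjusted p = 0.0309). It did not pass in the 18 other fits with 1 mouse left out, nor without Xpc-/- control 1 and 2 together (-0.24, adjusted p = 0.0898). Ndufs3, which holds no iron-sulfur cluster, changed by -0.23 ± 0.08 (adjusted p = 0.0968). It passed without Xpc-/- control 2 (-0.26, adjusted p = 0.0464) but in none of the 19 other fits with 1 mouse left out. Without Xpc-/- control 1 and 2 together Ndufs3 changed by -0.19 (adjusted p = 0.0985). Ndufs7, whose iron-sulfur cluster donates electrons to ubiquinone, changed by -0.14 ± 0.15 (adjusted p = 0.682). The only positive estimate in the module was that of the accessory subunit Ndufa7, at 0.15 ± 0.10 (adjusted p = 0.468), or 0.04 without Xpc-/- control 1 and 2.

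Ndufa5, another accessory subunit of the Q module, was lower in every exposed Wt mouse. Its signals were 12.89, 12.72, 12.80, 12.90 and 12.39 in Wt B[a]P mice and 13.25, 13.14, 13.11, 13.10 and 13.01 in Wt control mice. They were 12.66, 12.96, 12.65, 12.73 and 12.77 in Xpc-/- B[a]P mice and 12.31, 12.22, 13.22, 13.15 and 13.18 in Xpc-/- control mice. In Xpc-/- mice the exposed group lay between the controls, above the 2 arrays that stood apart and below the other 3. With all mice the effect was -0.22 ± 0.11 (limma, adjusted p = 0.278), and without Xpc-/- control 1 and 2 it was -0.41 (adjusted p = 0.000731).

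In the N module none of the 8 genes was called with all mice, 2 had a negative estimate, and the median was 0.05 on the log2 scale. Ndufv1, which binds the flavin and NADH, changed by 0.01 ± 0.07 (SE), Ndufv2, which carries an iron-sulfur cluster, by -0.001 ± 0.09, and Ndufs1, the largest core subunit, by 0.17 ± 0.10 (limma, adjusted p = 0.96, 0.998 and 0.361). The value for Ndufs1 without Xpc-/- control 1 and 2 was 0.04 (adjusted p = 0.831). The sign for Ndufv1 and Ndufv2 depended on the scaling of the arrays. Ndufs4, an accessory subunit needed for a stable N module, had the highest estimate of all 41 genes, 0.27 ± 0.09 (adjusted p = 0.0616). Its signals were 12.76, 12.96, 12.87, 12.71 and 13.12 in Wt B[a]P mice and 12.64, 12.72, 12.78, 12.61 and 12.59 in Wt control mice. They were 13.05, 13.26, 12.83, 13.31 and 12.58 in Xpc-/- B[a]P mice and 12.70, 12.94, 12.57, 12.68 and 12.53 in Xpc-/- control mice. Exposed mice were mostly higher, but the groups overlapped in both genotypes. Ndufs4 passed the threshold without Wt B[a]P 4 (adjusted p = 0.0494), Xpc-/- control 2 (adjusted p = 0.0255) or Xpc-/- B[a]P 5 (adjusted p = 0.014). It did not pass in the 17 other fits with 1 mouse left out. The accessory subunits Ndufa12, Ndufv3, Ndufs6 and Ndufa2 lay between -0.06 and 0.16, and the sign of Ndufa2 changed with cyclic loess scaling. The second probe of Ndufs6 gave -0.06, as did its first.

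In the membrane arm 2 of 19 genes fell and none rose with all mice. In the proximal part, next to the Q module, only Ndufa10 among 9 genes fell, 4 estimates were negative and the median was 0.03 on the log2 scale. The estimates there reached 0.25 ± 0.13 for Ndufc1 (limma, adjusted p = 0.289), 0.16 ± 0.14 for Ndufa13, also known as GRIM-19 (adjusted p = 0.595), and 0.14 ± 0.08 for Ndufa3 (adjusted p = 0.351). Without Xpc-/- control 1 and 2 the value for Ndufc1 was 0.05 (adjusted p = 0.794) and that for Ndufa13 was -0.01 (adjusted p = 0.964). At the low end, Ndufa11 changed by -0.17 ± 0.09 (adjusted p = 0.324), or -0.28 without the 2 arrays (adjusted p = 0.0205). Ndufa1, which is encoded on the X chromosome, changed by 0.03 ± 0.11 (adjusted p = 0.928), or 0.18 without the 2 arrays (adjusted p = 0.19). In the distal part only Ndufb8 among 10 genes fell, 6 estimates were negative and the median was -0.06. Ndufb3 changed by -0.21 ± 0.09 (adjusted p = 0.211), Ndufb2 by -0.15 ± 0.08 (adjusted p = 0.323) and Ndufb10 by -0.12 ± 0.08 (adjusted p = 0.439), the last by -0.21 without the 2 arrays (adjusted p = 0.0659). The highest estimates in the distal part were 0.12 ± 0.11 for Ndufb11 (adjusted p = 0.649), or 0.23 without the 2 arrays, and 0.09 ± 0.08 for Ndufab1, the mitochondrial acyl carrier protein (adjusted p = 0.613).

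**Figure D2:**
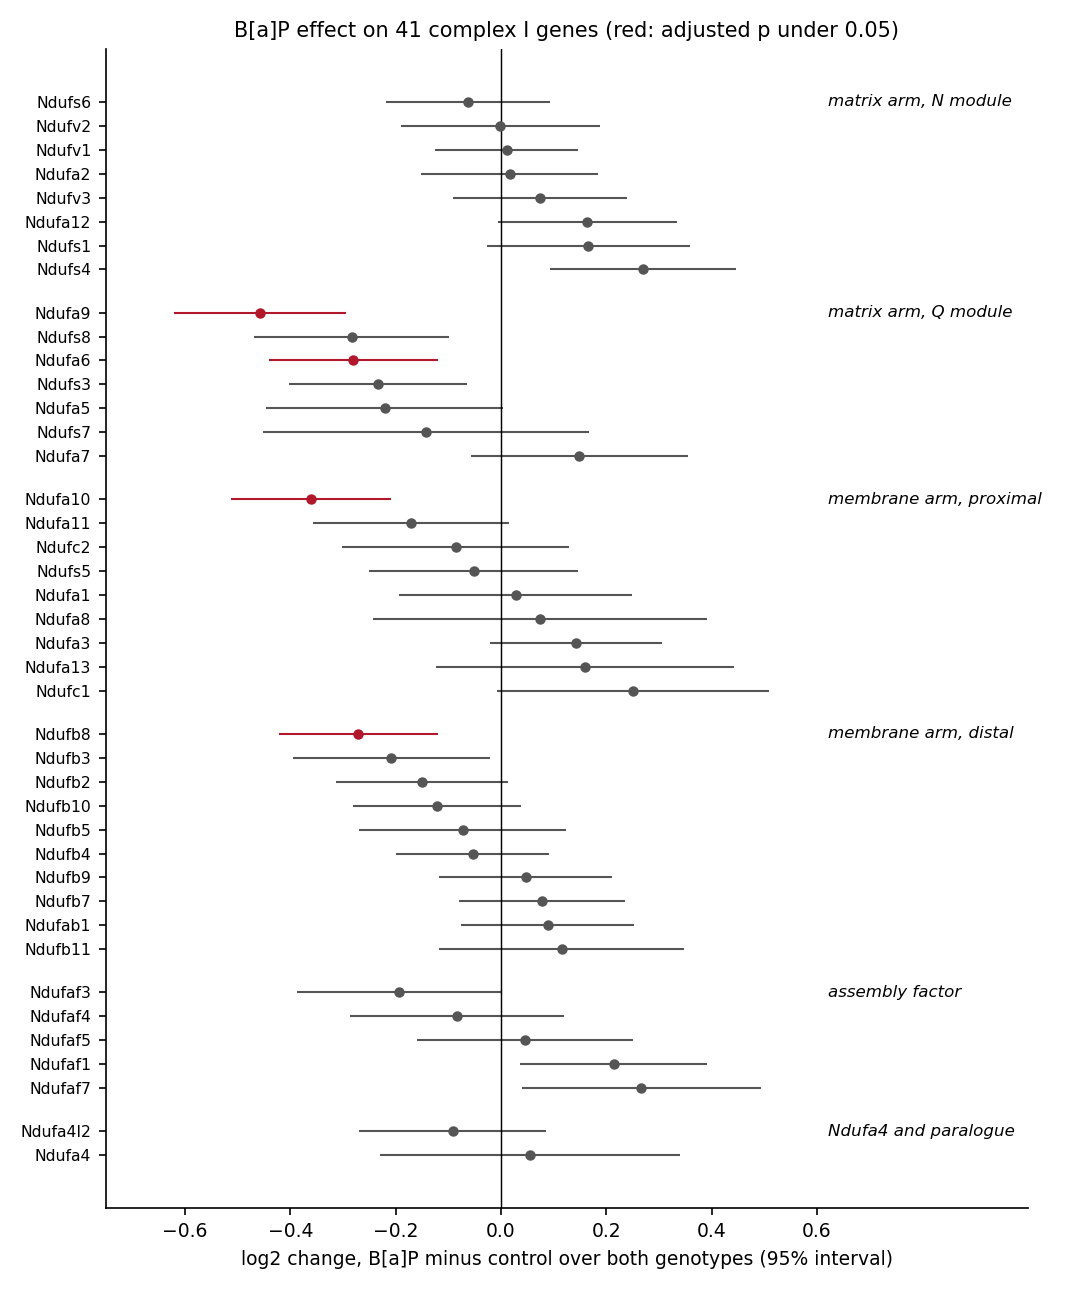
B[a]P effect on each of the 41 complex I genes over both genotypes (x axis, log2 difference of B[a]P minus control, 10 mice against 10; points are limma estimates and lines their 95% intervals), grouped by position in the complex. Red marks the 4 genes that fell, and 6 of the 7 genes of the Q module lie left of zero.

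The 5 Ndufaf assembly factors, which help to build the complex and are absent from its finished form, were not called. Ndufaf7, a protein methyltransferase, changed by 0.27 ± 0.11 (SE; limma, adjusted p = 0.177) and Ndufaf1, a chaperone of the membrane arm, by 0.21 ± 0.09 (adjusted p = 0.161). Without Xpc-/- control 1 and 2 these values were 0.09 and 0.10. Ndufaf3 and Ndufaf4, which act together on the Q module, changed by -0.19 ± 0.10 (adjusted p = 0.272) and -0.08 ± 0.10 (adjusted p = 0.718). Ndufaf5, which hydroxylates Ndufs7, changed by 0.05 ± 0.10 (adjusted p = 0.865). Without the 2 arrays the values of Ndufaf3, Ndufaf4 and Ndufaf5 were -0.10, -0.18 and 0.19, and none of the 5 was called. Ndufa4 was first counted with complex I and is now known as a subunit of complex IV. It changed by 0.05 ± 0.14 (adjusted p = 0.884), and the sign turned without the 2 arrays that stood apart. Its paralogue Ndufa4l2, a gene induced by hypoxia, changed by -0.09 ± 0.09 at the brighter probe and 0.07 at the dimmer probe, so its probes disagreed in sign.

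None of the 6 core subunits analysed here was called, with a median of -0.07 on the log2 scale and 4 negative estimates.

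Within Wt mice, 1 of the 41 genes fell and none rose (limma), where 0.218% of all genes fell and 0.572% rose. The gene was Ndufa9, at -0.66 ± 0.11 (SE) on the log2 scale, or 0.635 times the control level (adjusted p = 0.00555), and leaving out single mice gave -0.72 to -0.57. At an unadjusted p under 0.05, 7 genes passed, compared with 11.6% of all genes. Ndufa10 at -0.38 ± 0.11 (adjusted p = 0.0867) and Ndufa6 at -0.35 ± 0.11 (adjusted p = 0.155) were next, with Ndufa5 at -0.38 ± 0.16 (adjusted p = 0.343). In these 4 genes every exposed Wt mouse was below every Wt control. A gap of that kind downward was seen in 2.03% of all genes, and upward in 2.57% of all genes and in none of the 41.

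Within Xpc-/- mice none of the 41 genes was called, where 0.69% of all genes rose and 0.0589% fell. At an unadjusted p under 0.05, 8 genes passed, compared with 14.9% of all genes. Ndufa10 had the smallest p, with -0.34 ± 0.11 on the log2 scale (limma, adjusted p = 0.112), followed by Ndufb8 at -0.32 ± 0.10 (adjusted p = 0.133). Ndufaf7 had the highest estimate, 0.38 ± 0.16 (adjusted p = 0.257), which was 0.02 without Xpc-/- control 1 and 2 (adjusted p = 0.952). The number of genes at an unadjusted p under 0.05 was 16 without Xpc-/- control 3 and 5 without control 1. Shares of all genes are not given for these fits, so the numbers may move with the whole array. No complex I gene separated the 5 exposed from the 5 control Xpc-/- mice in either direction, compared with 0.69% of all genes downward and 1.72% upward.

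The sign of the B[a]P estimate was the same in both genotypes for 32 of the 41 genes (78%), 18 of them lower and 14 higher in exposed mice, and for 64.7% of all genes. Across the 41 genes the estimates in Xpc-/- and Wt mice had a Pearson r of 0.679 and a Spearman rho of 0.699, beside 0.526 and 0.468 across all genes. Without Xpc-/- control 1 and 2 the sign was shared by 33 of the 41 genes and by 65.8% of all genes. These are descriptions across genes measured on the same arrays. Complex I probes were mostly bright, and this agreement was not taken for genes of like signal. The difference between the genotypes in the response was tested directly, and none of the 41 genes passed (0% of all genes in either direction). At an unadjusted p under 0.05 only Ndufa9 passed, compared with 2.99% of all genes. Its estimate in Xpc-/- mice minus that in Wt mice was 0.40 on the log2 scale (95% interval 0.07 to 0.72, unadjusted p = 0.0187, limma adjusted p = 0.999). Without Xpc-/- control 1 and 2 that difference for Ndufa9 was 0.30 (unadjusted p = 0.0736), and the only gene at an unadjusted p under 0.05 was Ndufs7, at -0.45 (unadjusted p = 0.0251, limma adjusted p = 0.975). With array weights no gene was.

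**Figure D3:**
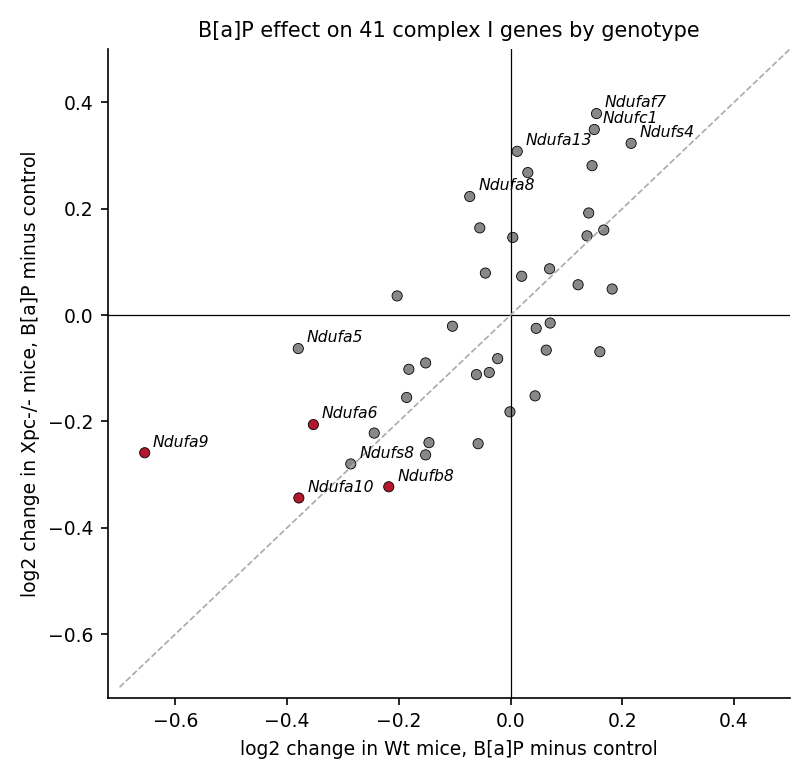
B[a]P effect in Xpc-/- mice (y axis) against that in Wt mice (x axis), each as the log2 difference of B[a]P minus control for 41 complex I genes, with the 4 genes that fell over both genotypes in red and the line of equal effects dashed. The 4 red points lie below zero on both axes, and Ndufa9 lies farthest to the left.

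No complex I gene passed the test for genotype. Over both treatments none of the 41 genes differed between Xpc-/- and Wt mice (limma), where 0.00589% of all genes were higher and 0.0177% lower. At an unadjusted p under 0.05, 2 of the 41 genes passed, compared with 6.81% of all genes. Ndufc2, a small membrane arm subunit, had the smallest p, with 0.24 ± 0.11 (SE) on the log2 scale (adjusted p = 0.744), and its signals in Xpc-/- control 1 and 2 were 12.84 and 12.81, above those of the other 18 mice. The other was Ndufs7, at -0.32 ± 0.15 (adjusted p = 0.744). Without those 2 arrays the values were 0.10 for Ndufc2 and -0.05 for Ndufs7 (adjusted p = 1.0 each), and only Ndufb8 had an unadjusted p under 0.05. Without Xpc-/- control 3 the number was 7, and the share of all genes is not given for that fit. In control mice none of the 41 genes was called (0% of all genes) and none had an unadjusted p under 0.05, compared with 4.56% of all genes. That number was 9 without Xpc-/- control 3, 5 without control 4, 6 without control 5 and 0 without control 1 and 2 together. No complex I gene was called in any of these fits. Shares of all genes are not given for them, so the numbers may move with the whole array. With all control mice the smallest p was that of Ndufa9, at -0.23 in Xpc-/- relative to Wt mice (adjusted p = 0.894). In exposed mice none of the 41 genes was called (0.00589% of all genes higher, 0% lower) and none had an unadjusted p under 0.05, compared with 4.23% of all genes, the smallest p being that of Ndufb8 at -0.17 (adjusted p = 0.987). In the fit without Xpc-/- control 1 and 2, Ndufs7 at -0.28 had an unadjusted p of 0.0351 among exposed mice (adjusted p = 0.697). That estimate was the same with all mice (limma, unadjusted p = 0.204), since no exposed mouse was left out. No complex I gene separated Xpc-/- from Wt mice without overlap among controls (0.442% of all genes downward, 0.259% upward) or among exposed mice (0.336% downward, 0.407% upward).

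The 2 Xpc-/- control arrays that stood apart differed widely from the rest of their group in complex I genes. In each of them 38 of the 41 genes lay outside the range of Xpc-/- control 3, 4 and 5. The share of all genes outside that range was not counted, so this number is not shown to be particular to complex I. The median absolute distance from the mean of those 3 mice was 0.46 and 0.53 on the log2 scale, beside 0.26 and 0.25 over all genes. Complex I probes were mostly bright, and this distance was not taken for genes of like signal. The direction differed by gene and was mostly shared by both arrays. Ndufs7 was lower by -1.26 and -1.41, Ndufa8 by -0.68 and -1.67, Ndufc1 by -1.06 and -0.90, Ndufa4 by -0.91 and -1.14, and Ndufa5 by -0.88 and -0.97. Ndufc2 was higher by 0.73 and 0.69, Ndufa1 by 0.69 and 0.86, and Ndufv2 by 0.68 and 0.63. Relative to the Wt control mean, the interquartile range over the 41 genes was 0.81 and 0.77 in these arrays and 0.09 to 0.44 in the other 18 mice. The cause of this difference was not tested.

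**Figure D4:**
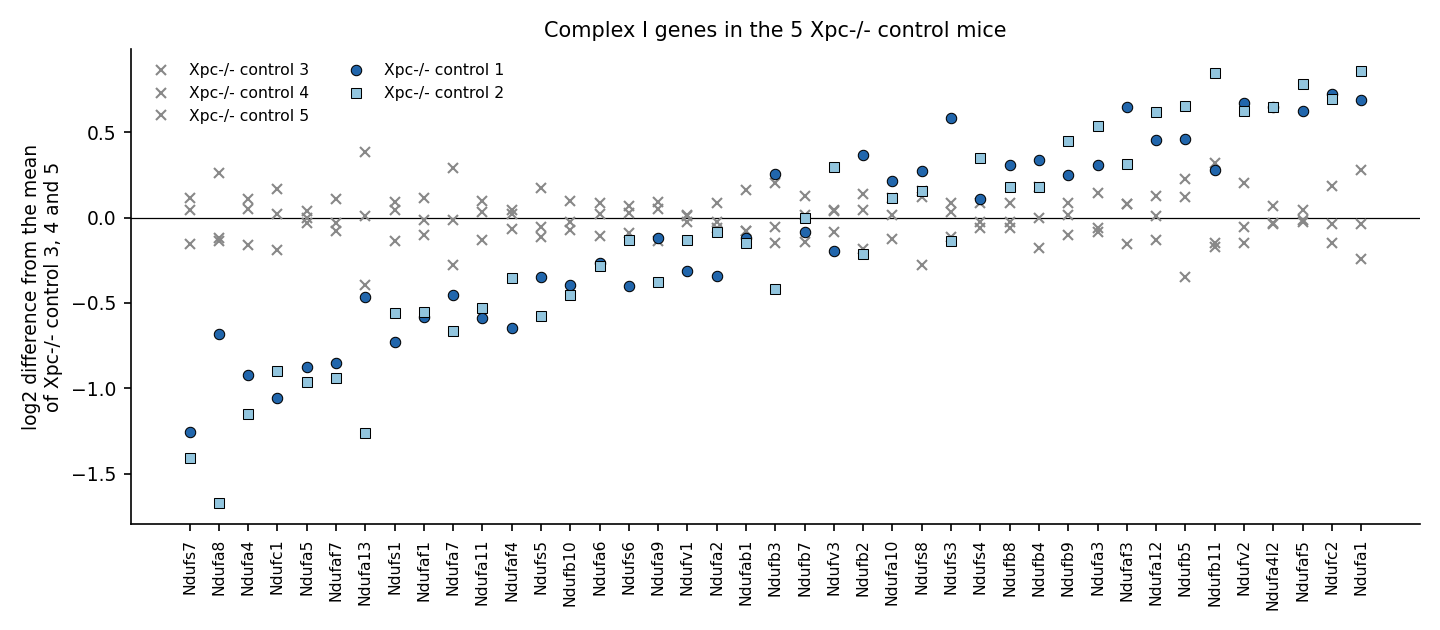
Signal of each of the 41 complex I genes in the 5 Xpc-/- control mice (y axis, log2 difference from the mean of Xpc-/- control 3, 4 and 5), with genes along the x axis ordered by the mean of Xpc-/- control 1 and 2. Control 1 (dark circles) and control 2 (light squares) lie outside the other 3 mice (grey crosses) for 38 of the 41 genes each. Genes run from Ndufs7 at the low end to Ndufa1 at the high end. The share of all genes outside those 3 mice was not counted.

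Without those 2 arrays the B[a]P effect over both genotypes was called in 9 complex I genes. Ndufa9, Ndufs7, Ndufa5, Ndufa6, Ndufa10 and Ndufa11 fell and Ndufs4, Ndufa12 and Ndufa3 rose, or 14.6% and 7.32% of the 41 genes, while 6.48% of all genes fell and 6.17% rose. The Ndufa3 probe was dim, at the 6.0th percentile of signals. Of the 41 estimates, 9 changed sign, 7 kept their sign but were over 1.5 times smaller, 13 were over 1.5 times larger and 12 lay within 1.5 times of the value with all mice. Ndufs7 then changed by -0.41 on the log2 scale (limma, adjusted p = 0.00482) and Ndufs4 by 0.31 (adjusted p = 0.0163). The 4 members of the Q module that fell were Ndufa9, Ndufs7, Ndufa5 and Ndufa6. In Wt mice Ndufa9, Ndufa5 and Ndufa10 then fell (1.05% of all genes), and in Xpc-/- mice Ndufs7 and Ndufa5 (1.16% of all genes). The Wt estimates of these 3 genes were the same in both fits, at -0.66, -0.38 and -0.38, since no Wt mouse was left out. For Wt mice only the spread shared by the 4 groups and the adjustment of p differed between the fits. Among the 5 exposed and 3 remaining control Xpc-/- mice, 6 genes were lower without overlap, namely Ndufs7, Ndufa5, Ndufa9, Ndufa11, Ndufb3 and Ndufb10, compared with 6.31% of all genes. Ndufa12 and Ndufa3 were higher without overlap, compared with 7.01% of all genes.

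Other genes of the pathway gave mixed counts. Of 9 further assembly factors measured, none was called for the B[a]P effect. Nubpl, which delivers iron-sulfur clusters to complex I, changed by -0.35 ± 0.12 (SE) on the log2 scale (limma, adjusted p = 0.0753), and without the 2 arrays by -0.53 (adjusted p = 0.000148). Without the 2 arrays the median of these 9 genes was -0.10, beside -0.04 with all mice. Acad9, which works with Ndufaf1, changed by -0.25 ± 0.10 (adjusted p = 0.134). Of 10 regulators of nuclear genes for mitochondria none was called. Gabpb1, the partner of the ETS factor Gabpa, changed by -0.24 ± 0.08 (adjusted p = 0.0869), and without the 2 arrays by -0.29 (adjusted p = 0.0197). The median of the regulators was 0.05 with all mice and -0.02 without the 2 arrays. The coactivator Ppargc1a changed by 0.03 ± 0.08 (adjusted p = 0.898). Among 47 genes of complexes II to V, 4 rose (8.51%) and 3 fell (6.38%), with a median of -0.03. Of all genes 4.02% rose and 2.34% fell. The ATP synthase subunit Atp5j2 rose by 0.48 ± 0.08 (adjusted p = 0.000612), and Atp5b, Atp5l and Cyc1 also rose. The cytochrome c oxidase subunit Cox6a1 fell by 0.37 ± 0.08 (adjusted p = 0.00443), and Sdhd and Atp5h also fell. With the 2 arrays left out, the same 4 genes rose and 7 (14.9%) fell, with a median of -0.04. The 7 were the 3 above and Atp5d, Atp5g1, Atp5pb and Uqcrc1. In that fit 6.17% of all genes rose and 6.48% fell. Among 75 mitochondrial ribosomal proteins, 2 rose (2.67%) and 6 fell (8%), with a median of -0.04. Without the 2 arrays 3 rose (4%) and 9 fell (12%), with a median of -0.09.

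Genes were called for B[a]P in 3 of 12 lists of testis cell type markers, while 2.34% of all genes fell and 4.02% rose. Of 8 round spermatid markers 3 fell (Tssk2, Catsper4 and Crem) and none rose, with a list median of -0.11 on the log2 scale. The mean of that list, taken relative to Wt controls, ranged from -0.19 to 0.02 in Wt B[a]P mice and from -0.09 to 0.10 in Wt control mice, and from -0.16 to 0.03 in Xpc-/- B[a]P mice and -0.07 to 0.10 in Xpc-/- control mice. None of its markers was in the dimmest 25% of probes. Of 10 spermatocyte markers 2 rose (Sycp2 and Sycp3) and none fell, but 4 had a negative estimate and the list median was 0.02. Without the 2 arrays that stood apart that median was -0.002. The mean of the spermatocyte list ranged from -0.03 to 0.13 in Wt B[a]P mice and -0.13 to 0.09 in Wt control mice. In Xpc-/- mice it ranged from 0.05 to 0.14 with B[a]P and from -0.02 to 0.12 in controls. Of 5 peritubular myoid markers 2 rose (Cnn1 and Tagln), with list means from 0.04 to 0.24 in Wt B[a]P mice, -0.03 to 0.02 in Wt control mice, 0.10 to 0.32 in Xpc-/- B[a]P mice and -0.15 to -0.03 in Xpc-/- control mice. The myoid list means of exposed mice lay above those of controls in both genotypes. No gene was called in the lists of fat, epididymis, red blood cells, endothelium, macrophages, Leydig and Sertoli cells, elongating spermatids and spermatogonia. Without the 2 arrays that stood apart, 3 round spermatid markers fell (Tssk2, Spaca1 and Catsper4, with a list median of -0.18). The same 2 spermatocyte and 2 myoid markers rose, 1 Leydig marker (Cyp17a1) rose and 1 Sertoli marker (Wt1) fell. In that fit 6.48% of all genes fell and 6.17% rose. The part of cell composition in the changes of complex I genes was not tested.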

How the data were processed

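Testis RNA of 20 mice was measured on 2-colour Agilent arrays. The authors read spots with Imagene and took natural log signals. Quantile normalization of all scans, correction of sample signals by the reference signal of the same spot and averaging over duplicate spots followed. The deposited natural log values (array medians 5.2254 to 5.2418) hold a signal level and are not ratios. Background subtraction and genome build are not given in the sources used here, and no scan date or slide was available as a batch.

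Values were divided by the natural log of 2 to give log2 values, and no probe was filtered. Of the probes, 18303 carried 1 gene symbol and 2565 none, and 18134 were updated by Entrez ID. A mean per group was fitted to all 20868 probes with limma 3.58.1 in R 4.3.3, with Benjamini-Hochberg adjustment of p over the whole table for each of 7 contrasts and a threshold of 0.05. Background shares count the brightest probe of 16966 genes. The fit was checked on simulated data. The 4 groups came from the sample labels, and the number of arrays limits the precision.

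Members, roles and lists were chosen with earlier results of these data known. Named were called genes, the 10 largest changes each way, core subunits, assembly factors, the smallest p of each contrast, the brightest and dimmest genes, Ndufa4 and Ndufa4l2; further members were named after their values were seen. Alternatives were ordinary two-way analysis of variance, a replicate block, median centring, cyclic loess, a filter on dim probes, averaged probes, array weights, each mouse left out, and Xpc-/- control 1 and 2 left out together. Tables and motif counts were made in Python 3.11.15 with pandas 2.3.3.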

Additional observations from a re-analysis of the deposited data

Results flagged for a closer look

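In 9 of 164 sets of 5 mice (41 genes in 4 groups), 1 mouse lay far from the other 4. Chance alone marks about 5% of such sets. In exposed mice these were Ndufv1 in Wt B[a]P 3, at 11.52 on the log2 scale with the nearest mouse at 11.69, and Ndufv3 in Xpc-/- B[a]P 2, at 7.96 with the nearest at 7.55. Ndufb7 was low in Xpc-/- B[a]P 1, at 12.37 against 12.69, and Ndufa4 was low in Xpc-/- B[a]P 5, at 9.90 against 10.48. In Wt control mice, Ndufa8 and Ndufc1 were both low in mouse 4, at 10.47 against 11.18 and at 12.27 against 12.89. Ndufa9 was lowest in Wt control 5, at 11.96 against 12.12, and all exposed Wt mice were still lower. In Xpc-/- control mice, Ndufs8 was low in mouse 3, at 10.57 against 10.97, and Ndufab1 was high in mouse 4, at 7.25 against 7.01.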

How the results depend on the processing

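Over both genotypes, 4 complex I genes were called for B[a]P. Left-out single mice gave 3 to 6 calls, and the share of all genes called moved as well. Without Xpc-/- control 2 there were 6 calls, where 4.94% of all genes rose and 3.96% fell. Without Wt control 4 there were 3, where 2.95% rose and 1.16% fell. Array weights gave 12 calls (3 rose and 9 fell, where 6.88% of all genes rose and 6.89% fell). Leaving out Xpc-/- control 1 and 2 together gave 9, where 6.17% of all genes rose and 6.48% fell. In Wt mice, array weights and leaving out both arrays each gave 3 calls, and in Xpc-/- mice 1 and 2. With array weights 1.96% of all genes rose and 1.8% fell in Wt mice, and 2.21% and 1.01% in Xpc-/- mice. The median change in Wt mice ranged from -0.034 to 0.038 with single mice left out. No other count of called complex I genes moved by over 1.5 times.

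Several estimates over both genotypes changed sign, among them that of Ndufa13, which was 0.16 with all mice. With cyclic loess, Ndufv1 was -0.012 and Ndufa2 -0.008. With median-centred arrays, Ndufv2 was 0.000. With array weights, Ndufv1 was -0.040, Ndufv2 0.084, Ndufa8 -0.132, Ndufc2 0.003, Ndufa4 -0.115 and Ndufa4l2 0.007. Without both arrays, Ndufv1 was -0.035, Ndufv2 0.129, Ndufa2 -0.026, Ndufa8 -0.160, Ndufa13 -0.013, Ndufc2 0.055, Ndufb5 0.038, Ndufa4 -0.151 and Ndufa4l2 0.037. With single mice left out, Ndufv1 ranged from -0.017 to 0.031, Ndufv2 from -0.052 to 0.051, Ndufa2 from -0.022 to 0.062, Ndufa1 from -0.041 to 0.097, Ndufa8 from -0.075 to 0.167 and Ndufa4 from -0.037 to 0.120. None of these genes was called. The causes were not tested.

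The deviations of mice with the same replicate number had correlations from -0.227 to 0.323 between groups. The labels do not say whether the numbers pair the mice, and these correlations do not settle it. With the replicate number as a block, the calls were 4 over both genotypes, 1 in Wt and 0 in Xpc-/- mice, as without it. Ordinary two-way analysis of variance gave the same 4, 1 and 0. The number of arrays limits the precision.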
